A study of Mus musculus with 8 samples.

Results

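The genes described here are 8 markers of airway basal cells and airway progenitors, namely Trp63, Krt5, Krt14, Krt15, Ngfr, Snai2, Aqp3 and Pdgfa, in whole lungs of mice with altered beta-catenin. A gene was taken up when a probe set annotated with its symbol alone was on the array, and the brightest such probe set over the 8 arrays was used. All 8 genes were found, with 1 probe set each, among 19937 genes measured in the series. The lungs came from untreated mice at postnatal day 21 and were compared in 2 groups of 4 mice. One group carried a stabilized form of beta-catenin, the protein encoded by Ctnnb1 that carries canonical Wnt signals into the nucleus and also joins cadherins at cell junctions. In the other group beta-catenin was knocked out. No source used here names the Cre driver, the altered exons or the recombined cells. Lungs with unaltered beta-catenin were not analysed here, so neither group serves as a normal lung.

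Basal cells sit on the basement membrane of the pseudostratified airway epithelium and act as stem cells that renew the secretory and ciliated cells above them. In the mouse they line the trachea and the main bronchi and are scarce in the small intrapulmonary airways. Trp63 encodes p63, the transcription factor without which basal cells are not made, and Krt5 and Krt14 encode the pair of keratins that fill their cytoskeleton. The other genes on the list are shared with further cell types of the lung: Snai2 with mesenchymal cells, Pdgfa with alveolar epithelium, and Ngfr with nerves and vessel walls.

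Levels are log2 expression values from robust multi-array averaging (RMA), so a difference of 1 is a 2-fold change. Array medians were 5.97 to 5.98 in stabilized and 6.01 to 6.03 in knockout lungs, so they did not overlap between the groups. The part of this offset in the differences below was not tested. Every mouse is recorded as male, but Xist, the transcript of the inactive X chromosome, was high (10.36 to 10.59) in 4 arrays, 2 in each group, and low (4.18 to 4.62) in the others, and those same 4 arrays had low Uty, Kdm5d and Eif2s3y, which are Y-linked. The members are therefore also given within each of these patterns. Ctnnb1 transcript differed by 0.09 ± 0.06 (SE, n = 4 per group, limma adjusted p = 0.42), which does not check the genotype because where the probes lie relative to the altered exons is not stated.

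The basal cell signal itself was weak in these lungs. As a gauge of the values that probe sets give with little or no transcript, 22 genes typical of other organs, such as lens crystallins, sperm protamines and pituitary hormones, had mean levels of 2.88 to 6.33 with a median of 4.41. Of the 8 markers, 6 lay inside that range, with means over the 8 arrays from 4.88 for Krt5 to 6.02 for Ngfr. Only Snai2 at 7.74 and Pdgfa at 8.53 lay above it. Probe sets differ in their own background, so these positions do not rank the genes by abundance, and an unexpressed gene cannot be told apart from one expressed in a few cells. A difference in a gene so close to background is also compressed on the log scale. Of the 22 genes of other organs, 6 were at or above the mean of Krt5, 3 at or above that of Trp63, 3 at or above that of Krt14 and 2 at or above that of Krt15. The whole-lung arrays thus gave p63 and the keratins that define basal cells no signal that stood clear of the brightest genes of other organs.

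Between the groups, 1 of the 8 markers rose in stabilized lungs (Snai2), 1 fell (Aqp3) and 6 did not pass the test, limma with Benjamini-Hochberg adjustment over all 19937 genes at an adjusted p under 0.05. Of all genes, 9.62% passed, 4.65% higher and 4.96% lower in stabilized lungs. The counts for gene lists below stand beside these shares, and no list was tested against them. The share of higher genes among those called was 48.4%, and 64.4% when each array was centred on its median. The arrays of the groups did not overlap for the same 2 markers, against 16.9% of all genes, 9.06% with stabilized lungs higher and 7.82% with them lower. The median difference of the 8 markers was -0.04 and that of all genes -0.01, and the median absolute difference was 0.09 for the markers and 0.10 for all genes. The list therefore holds a pair of genes that moved in opposite directions and no shift in common. In whole lung, fewer cells of a type and less RNA per cell cannot be told apart.

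**Figure D1:**
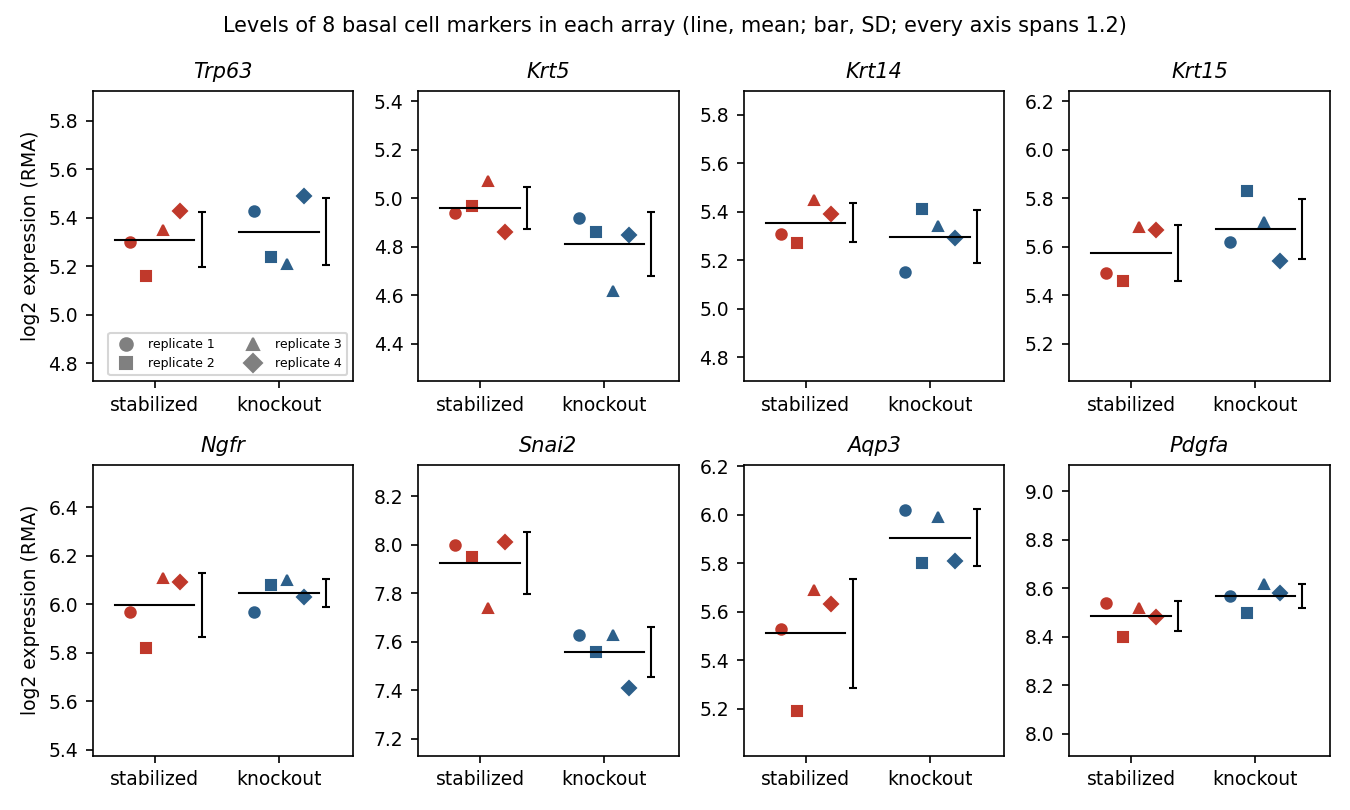
Log2 expression of each marker by array, with stabilized lungs in red and knockout lungs in blue, a marker shape for each replicate, a line at the group mean and a bar for the SD (n = 4). The groups are apart for Snai2 (7.74 and above against 7.63 and below) and Aqp3 (5.69 and below against 5.80 and above) and overlap for the others.

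Snai2 encodes Slug, a zinc-finger repressor of the Snail family that binds E-box sequences and is known for repressing cadherin genes and for driving epithelial cells towards a mesenchymal state. In replicates 1 to 4 its level was 8.0, 7.95, 7.74 and 8.01 with stabilized beta-catenin, and 7.63, 7.56, 7.63 and 7.41 in the knockout. All stabilized lungs lay above all knockout lungs, and stabilized replicate 3 came closest to them. The group means were 7.93 ± 0.12 and 7.56 ± 0.10 (SD, n = 4), a difference of 0.37 ± 0.08 (SE, limma adjusted p = 0.011), which is 1.29-fold with a 95% interval of 0.20 to 0.54 on the log2 scale. A difference of that size or larger in either direction was found in 5.97% of all genes. The call was kept in each of the 8 fits that left out 1 array, with adjusted p from 0.005 to 0.043. Within the arrays with high Xist the difference was 0.37 ± 0.09 and within those with low Xist 0.36 ± 0.12 (SE, n = 2 per group), with limma adjusted p = 0.075 and 0.22, neither of which passed.

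Of 12 genes for Snail, Scratch, Zeb and Twist factors and the adhesion genes they act on, limma called 0, against 9.62% of all genes, too short a list to tell the shares apart. The count was 1 without stabilized replicate 4 and with each array centred on its median. At an unadjusted p under 0.05, 3 were higher and 1 lower. Of all 19937 genes, between 1543 and 6089 passed that unadjusted level. Unadjusted counts here and below are therefore not read as a result about a list. Snai1, the other well-known Snail factor, differed by -0.05 ± 0.10 (SE, adjusted p = 0.79). Zeb2, a zinc-finger repressor of the same kind, differed by 0.20 ± 0.07 (SE, adjusted p = 0.094). Cdh1, which encodes E-cadherin, a junction protein and known Snail-family target, differed by -0.01 ± 0.06 (SE, adjusted p = 0.97), with means of 10.04 and 10.05. Cdh2, which encodes N-cadherin of mesenchymal cells and nerves, differed by 0.31 ± 0.10 (SE, adjusted p = 0.089), with overlapping groups.

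Some markers of other cell types moved beside Snai2. Of 16 fibroblast genes 4 rose, 0 fell and 12 did not pass, and the mean log2 level of the list was 9.44 to 9.57 in stabilized and 9.26 to 9.38 in knockout arrays. Wnt2, a ligand made by lung fibroblasts, rose by 0.64 ± 0.09, and Tcf21, a transcription factor of lipofibroblasts, rose by 0.64 ± 0.11 (SE, adjusted p = 7.3e-04 and 0.0033). At an unadjusted p under 0.05, 7 fibroblast genes were higher and 1 lower, the latter Wnt5a at -0.23 ± 0.09. Col1a1 and Dcn differed by -0.16 ± 0.11 and -0.14 ± 0.10 (SE, limma adjusted p = 0.12, 0.39 and 0.44 in turn). Of 15 alveolar type 2 cell genes 11 rose and 0 fell, among them Fabp5, Egfl6 and Lamp3, with list means of 10.97 to 11.13 against 10.68 to 10.79. That count depended on single arrays: it was 5 when knockout replicate 3, knockout replicate 4 or stabilized replicate 1 was left out, 6 without replicate 2 of either group, and 7 without knockout replicate 1. Of 10 smooth muscle and myoepithelial genes limma called 0 (3 higher and 0 lower at an unadjusted p under 0.05, and 1 called without stabilized replicate 3), with list means of 7.88 to 8.17 against 7.86 to 7.99. The part of these cell types in the Snai2 difference was not tested.

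Aqp3 encodes aquaporin 3, a channel for water and glycerol in the basolateral membrane of basal cells. Replicates 1 to 4 gave levels of 5.53, 5.19, 5.69 and 5.63 with stabilized beta-catenin, and 6.02, 5.80, 5.99 and 5.81 in the knockout. Every stabilized lung lay below every knockout lung, the gap between the nearest arrays was small, and stabilized replicate 2 was lowest by a wide margin. The means were 5.51 ± 0.23 and 5.90 ± 0.12 (SD, n = 4). Aqp3 fell by 0.39 ± 0.10 (SE, limma adjusted p = 0.034), a 1.31-fold difference with a 95% interval of -0.62 to -0.17. Its mean over the 8 arrays, 5.71, lay inside the range of the genes of other organs (2.88 to 6.33). Of those 22 genes limma called 0, but the groups did not overlap for 1 that was higher and 2 that were lower in stabilized lungs. A gap between groups can thus occur at such levels. The call did not hold throughout. Leaving out stabilized replicate 1 gave an adjusted p of 0.076, stabilized replicate 2 gave 0.052, knockout replicate 1 gave 0.083 and knockout replicate 3 gave 0.097. Repeated quantile normalization gave 0.056. The difference stayed between -0.45 and -0.29 when 1 array was left out. Within the arrays with high Xist it was -0.42 ± 0.09 and within those with low Xist -0.36 ± 0.16 (SE, n = 2 per group), with limma adjusted p = 0.058 and 0.35.

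Among 11 other aquaporin genes, 1 fell and 10 did not pass, and 2 were called without knockout replicate 4. Aqp4, a water channel of airway epithelium, fell by 0.45 ± 0.07 (SE, adjusted p = 0.002), from 5.66 ± 0.09 in knockout to 5.21 ± 0.11 in stabilized lungs (SD, n = 4), and its arrays did not overlap. Aqp5, the aquaporin of alveolar type 1 cells and glands, differed by 0.07 ± 0.10, and Aqp1, that of capillary endothelium, by 0.27 ± 0.08 (SE, adjusted p = 0.70 and 0.062).

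Aqp3 moved beside the markers of the mature airway cells. Of 14 club cell genes 13 fell and 0 rose, with list means of 7.95 to 8.32 in stabilized and 9.14 to 9.56 in knockout arrays, and Scgb3a2, Chad and Cyp2f2 had the smallest p. Of 14 ciliated cell genes 13 fell and 0 rose, led by Dnah5, Tmem212 and Hydin, with list means of 5.51 to 5.68 against 6.32 to 6.48. Lymphocyte genes were lower as well: 10 of 12 B and T cell genes fell, led by Cd79a, Cd79b and Cr2, and the list means were 5.73 to 5.97 against 6.67 to 7.26. Lymphocytes can express Aqp3 too. The part of these cell types in the Aqp3 difference was not tested. Stabilized replicate 2, lowest for Aqp3, was also lowest for the club cell list (7.95), the lymphocyte list (5.73) and the genes of other organs (4.39, against 4.45 to 4.54 in the other arrays).

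**Figure D2:**
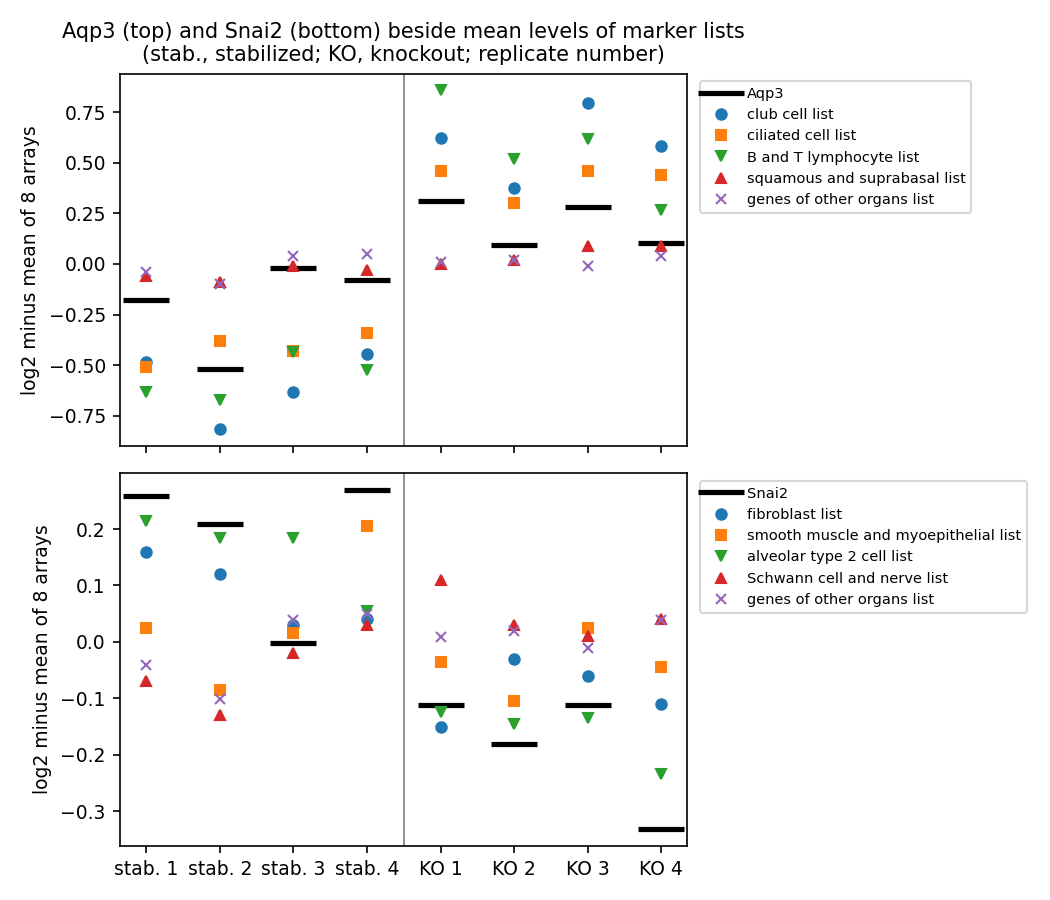
Aqp3 (top) and Snai2 (bottom) by array as log2 level minus the mean of the 8 arrays (black bars), beside the means of 4 marker lists per panel and of the genes of other organs, centred the same way (symbols). Club, ciliated and lymphocyte means lie below 0 in all stabilized and above 0 in all knockout arrays, as Aqp3 does, and fibroblast and alveolar type 2 means lie above 0 in all stabilized and below 0 in all knockout arrays.

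Slug is known to bind the E-box CAGGTG, so this motif was looked for before the start sites of the markers. RefSeq promoters (GRCm38.p6) were at hand for 5 of the 8 genes, namely Krt5, Krt14, Ngfr, Aqp3 and Pdgfa, and not for Trp63, Krt15 and Snai2. In the 250 bases before the start site, CAGGTG on either strand was found in Aqp3 and Krt5 and in none of the other 3 genes, against 17.2% of 32851 promoters. The match began 17 bases before the start in Aqp3 and 128 bases before it in Krt5. The TCF/LEF core, through which beta-catenin acts on DNA, was searched as CTTTGAA or CTTTGAT on either strand, and was in 0 of the 6 member promoters and in 7.48% of all. The stretch of Aqp3 (chr4:41098184-41098433, minus strand) is shown because it is the one member promoter at hand whose gene passed the test, and that of Krt5 (chr15:101712906-101713155, minus strand) because it holds the same match in a gene that did not pass. Capitals mark the E-box or its reverse complement, and a match is not evidence of binding.
Aqp3: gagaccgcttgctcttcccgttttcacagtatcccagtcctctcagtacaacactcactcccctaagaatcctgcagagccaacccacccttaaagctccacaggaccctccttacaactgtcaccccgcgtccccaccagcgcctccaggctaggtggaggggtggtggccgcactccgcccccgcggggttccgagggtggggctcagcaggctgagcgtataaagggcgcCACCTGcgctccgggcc
Krt5: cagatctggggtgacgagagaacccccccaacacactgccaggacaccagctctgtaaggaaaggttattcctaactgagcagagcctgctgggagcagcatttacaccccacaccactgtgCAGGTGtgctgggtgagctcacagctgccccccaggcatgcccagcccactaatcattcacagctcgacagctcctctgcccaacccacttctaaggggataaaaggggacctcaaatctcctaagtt

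The defining transcription factor, Trp63, showed no detectable difference. It was at 5.30, 5.16, 5.35 and 5.43 in stabilized and at 5.43, 5.24, 5.21 and 5.49 in knockout replicates 1 to 4. The groups overlapped almost completely, with a difference of -0.03 ± 0.08 (SE, limma adjusted p = 0.85) and a 95% interval of -0.22 to 0.15. The related gene Trp73, which encodes p73, a factor of multiciliated cells as well, differed by -0.34 ± 0.10 (SE, adjusted p = 0.054), with no overlap between the groups but short of the threshold.

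The 3 basal keratins did not pass either. Krt5 lay at 4.94, 4.97, 5.07 and 4.86 in stabilized and at 4.92, 4.86, 4.62 and 4.85 in knockout replicates 1 to 4. Among these, 3 stabilized lungs lay above all knockout lungs, and knockout replicate 3 was the lowest. The difference of 0.15 ± 0.08 (SE, limma adjusted p = 0.27) had the smallest p among the 6 markers that did not pass, with a 95% interval of -0.02 to 0.32. Krt14, the partner of Krt5 in the filament, was at 5.31, 5.27, 5.45 and 5.39 against 5.15, 5.41, 5.34 and 5.29 in the same order of replicates. These values were interleaved, and the difference was 0.06 ± 0.07 (SE, adjusted p = 0.69). Krt15, a keratin of a subset of basal cells, was at 5.49, 5.46, 5.68 and 5.67 against 5.62, 5.83, 5.70 and 5.54. Its difference was -0.10 ± 0.08 (SE, adjusted p = 0.49), opposite in sign to those of Krt5 and Krt14.

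Of 22 other keratin genes, 1 rose and 21 did not pass. The one was Krt7, a keratin of simple epithelium in alveoli and airways, at 0.28 ± 0.06 (SE, limma adjusted p = 0.013), a call lost without stabilized replicate 1 (adjusted p = 0.052). Krt17, the other keratin often seen in basal cells, differed by -0.06 ± 0.07 (adjusted p = 0.67). Of 20 genes of squamous and suprabasal cells, which cover the layer above basal cells and the lining of the oesophagus, 1 rose and 2 fell. Ly6d, a surface protein of squamous cells that B cells also carry, fell by 1.08 ± 0.08, from 7.72 ± 0.13 in knockout to 6.64 ± 0.07 in stabilized lungs. Anxa8, an annexin of stratified epithelium, fell by 0.59 ± 0.11, and Tgm1, the transglutaminase that cross-links the cornified envelope, rose by 0.44 ± 0.09 (SE, adjusted p = 4e-06, 0.0044 and 0.0066 in turn).

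Ngfr encodes p75, a receptor for neurotrophins whose presence on the cell surface is used to sort mouse tracheal basal cells. It was at 5.97, 5.82, 6.11 and 6.09 in stabilized and 5.97, 6.08, 6.10 and 6.03 in knockout replicates 1 to 4. Apart from stabilized replicate 2, the lowest, the values lay on top of each other, with a difference of -0.05 ± 0.07 (SE, limma adjusted p = 0.73). Of 12 further neurotrophin pathway genes 1 passed: Bex3, whose product binds the p75 receptor, rose by 0.31 ± 0.07 (SE, adjusted p = 0.012). The neurotrophin receptor Ntrk2 and the ligand Bdnf differed by 0.01 ± 0.12 and -0.09 ± 0.06 (SE, adjusted p = 0.96 and 0.41). Of 11 Schwann cell and nerve genes 1 fell, Cnp, by 0.26 ± 0.07 (SE, adjusted p = 0.041), a call lost in 7 of the 8 fits without 1 array (adjusted p up to 0.13).

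Pdgfa encodes the platelet-derived growth factor A chain, a ligand that alveolar epithelium sends to fibroblasts bearing its receptor. It was at 8.54, 8.40, 8.52 and 8.48 in stabilized and 8.57, 8.50, 8.62 and 8.58 in knockout replicates 1 to 4. Its levels had the narrowest span of the 8 markers, and 2 stabilized lungs lay below every knockout lung. The difference was -0.08 ± 0.06 (SE, limma adjusted p = 0.46) with a 95% interval of -0.21 to 0.05. The receptor gene Pdgfra, a fibroblast marker, rose by 0.33 ± 0.06 (SE, adjusted p = 0.0054), from 10.58 ± 0.07 in knockout to 10.91 ± 0.06 in stabilized lungs (SD, n = 4), and was the 1 of 5 other PDGF genes that passed. Pdgfrb, the receptor of pericytes, differed by -0.05 ± 0.06 (SE, adjusted p = 0.67).

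For each of the 6 markers that did not pass, the 95% interval held 0. The bound farthest from 0 was that of Krt5, at a 1.25-fold difference. These bounds hold for the probe set signal. Of these 6 markers only Pdgfa lay above the range of the genes of other organs. For the others, whose differences are compressed near background, the intervals do not limit the change in transcript.

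**Figure D3:**
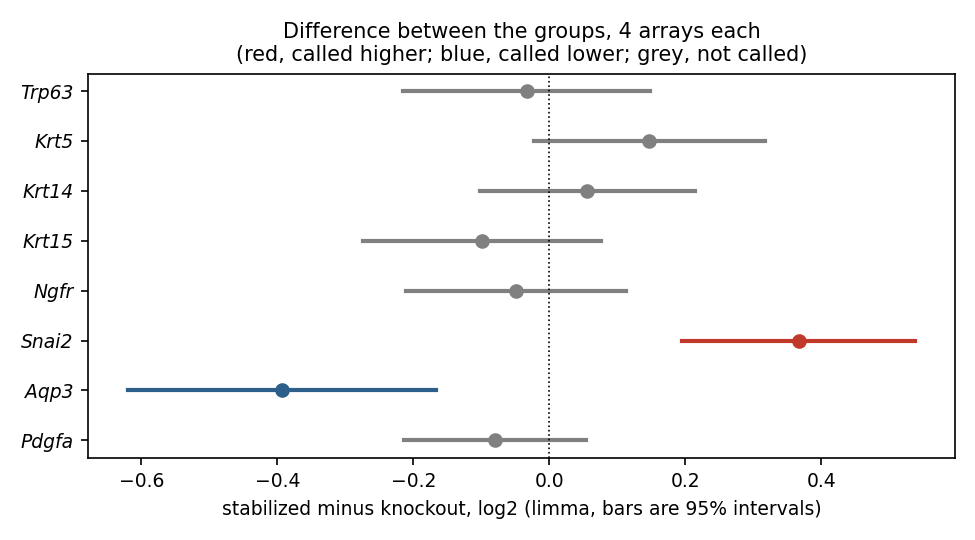
Stabilized minus knockout difference of each marker on the log2 scale, as points with limma's 95% intervals (n = 4 per group), coloured by whether the gene was called. The interval of Snai2 lies above 0, that of Aqp3 lies below 0, and the other 6 hold 0.

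Many markers were lowest in the same stabilized array, a pattern that was not limited to the markers. Stabilized replicate 2 was the lowest of its group in 6 of the 8 markers, all but Krt5 and Snai2, and stabilized replicate 3 was the highest in 5. Among knockout lungs each array was the lowest for 2 markers. The mean of the 8 markers was 6.13, 6.03, 6.20 and 6.20 in stabilized and 6.16, 6.16, 6.15 and 6.12 in knockout replicates 1 to 4. Stabilized replicate 2 thus stood lowest in this mean. It was also the lowest array in the genes of other organs (4.39) and in the lists for other aquaporins (6.14), squamous and suprabasal cells (5.47) and Schwann cells and nerves (6.31). In the ciliated cell list it was not the lowest (5.64, against 5.51 in stabilized replicate 1). The fit with array weights gave it the lowest weight, 0.47. The part of the array's background in the low values was not tested.

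Other genes with a role in basal cells also moved in both directions. Of 23 further basal cell genes 2 rose, 3 fell and 18 did not pass, with a median difference of -0.03, where 9.62% of all genes passed. The groups did not overlap for 4 that were higher and 5 that were lower, against 16.9% of all genes. Whether the list differs from all genes was not tested. Cldn1, a tight junction claudin, fell by 0.79 ± 0.11 from 6.84 ± 0.26 in knockout to 6.04 ± 0.10 in stabilized lungs (SD, n = 4, limma adjusted p = 8.8e-04). Gpx2, a glutathione peroxidase of epithelium, fell by 0.42 ± 0.07, and Itgb4, the integrin beta 4 chain that anchors basal cells to the basement membrane, fell by 0.31 ± 0.06 (SE, adjusted p = 0.0032 and 0.006). The pair that rose, named after their values were seen, were Lamb3, a chain of an epithelial laminin, by 0.31 ± 0.07 and the epidermal growth factor receptor Egfr by 0.28 ± 0.07 (SE, adjusted p = 0.010 and 0.025). The Egfr call was lost in 6 of the 8 fits without 1 array (adjusted p up to 0.081) and after repeated quantile normalization.

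The anchoring complexes split in a similar way. Of 18 hemidesmosome and desmosome genes, 2 rose and 2 fell, and 14 did not pass, where 9.62% of all genes passed. The groups did not overlap for 3 that were higher and 4 that were lower, against 16.9% of all genes. Lamb3 and Lama3, which encode chains of the basement membrane laminin to which hemidesmosomes bind, rose, the latter by 0.28 ± 0.07 (SE, limma adjusted p = 0.020). Itgb4, the receptor for that laminin, fell, and so did the desmosomal cadherin Dsg2, named after its value was seen, by 0.28 ± 0.08 (SE, adjusted p = 0.036). Col17a1, the transmembrane collagen of the hemidesmosome, differed by 0.00 ± 0.07. The call of Lama3 was lost in 3 of the 8 fits without 1 array (adjusted p up to 0.067) and after repeated quantile normalization. That of Dsg2 was lost in 6 of the 8 (adjusted p up to 0.11), with arrays centred on their median and after repeated quantile normalization. The list held 2 called genes when replicate 1 of either group or knockout replicate 3 was left out.

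Of 20 transcription factors and signalling genes that regulate airway epithelium, 1 passed, the receptor gene Notch2, which fell by 0.37 ± 0.06 (SE, limma adjusted p = 0.0027) from 9.62 ± 0.07 in knockout to 9.25 ± 0.06 in stabilized lungs (SD, n = 4), and 2 passed without knockout replicate 3. Cartilage genes, which would be high in a sample that held more large airway, had 1 of 13 called: Matn4 rose by 0.42 ± 0.07 (SE, adjusted p = 0.0032). The list means for cartilage were 5.60 to 5.84 in stabilized and 5.69 to 5.79 in knockout arrays and overlapped. The median level of the list was 5.83, inside the range of the genes of other organs (2.88 to 6.33). With levels so near background, the overlap cannot show that the samples held equal amounts of large airway. Of 14 skeletal and cardiac muscle genes, 1 rose (Myh7) and 4 fell, among them Ryr2 and Actc1, with list means of 7.11 to 7.20 against 7.26 to 7.67. The upper knockout values came from replicates 1 and 3, at 7.64 and 7.67, while replicates 2 and 4 were at 7.28 and 7.26. The number called was 3 without knockout replicate 3 and 8 without knockout replicate 2. The call of Actc1 was lost in 1 of the 8 fits without 1 array. Of 15 alveolar type 1 cell genes, Spock2 and Krt7 rose and 13 did not pass, with 1 called without stabilized replicate 1.

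**Figure D4:**
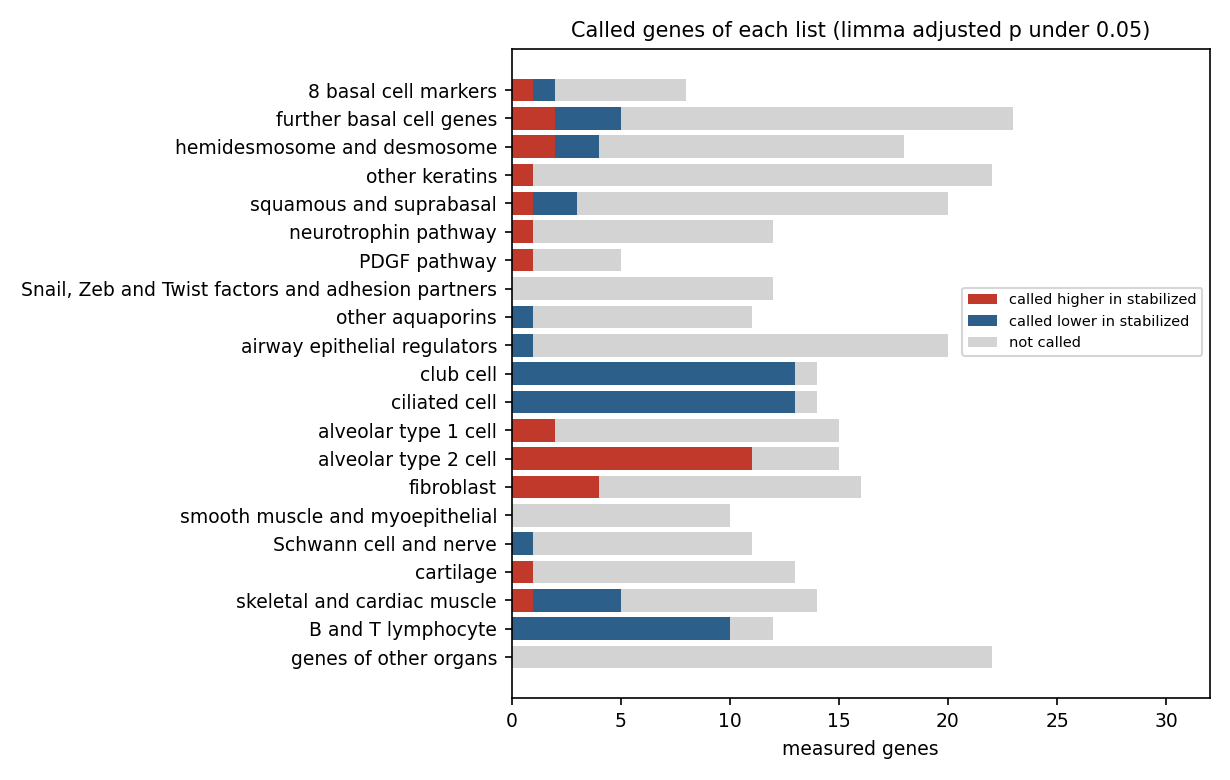
Number of measured genes in each list that were called higher (red) or lower (blue) in stabilized lungs or were not called (grey), by limma at an adjusted p under 0.05. Club, ciliated and lymphocyte lists are mostly blue and the alveolar type 2 list mostly red, while the 8 basal cell markers and the further basal cell genes hold both colours and are mostly grey.

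The genes whose profile over the 8 arrays came closest to each called marker were found by the root mean square difference of log2 values after each gene's mean was subtracted. Such a profile includes the group difference, so a difference like that of the marker follows from the choice. The p-values of these genes are therefore not separate evidence. Closest to Snai2 were Tmem138 at 0.053, Ttc38 at 0.070 and Rell1 at 0.074. Ttc38 and Rell1 rose, by 0.35 ± 0.06 and 0.38 ± 0.06 (SE, limma adjusted p = 0.0048 and 0.002), and Tmem138 differed by 0.30 ± 0.09 (adjusted p = 0.056). Closest to Aqp3 were H4c14 at 0.051, Slc17a9 at 0.064 and Itgal at 0.066. Slc17a9, a vesicular nucleotide transporter, and Itgal, an integrin chain of leukocytes, fell by 0.46 ± 0.10 and 0.41 ± 0.10 (SE, adjusted p = 0.011 and 0.025), the latter call being lost in 4 of the 8 fits without 1 array (adjusted p up to 0.079). H4c14, one of several near-identical histone genes and therefore uncertain, differed by -0.31 ± 0.11 (adjusted p = 0.11).

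**Figure D5:**
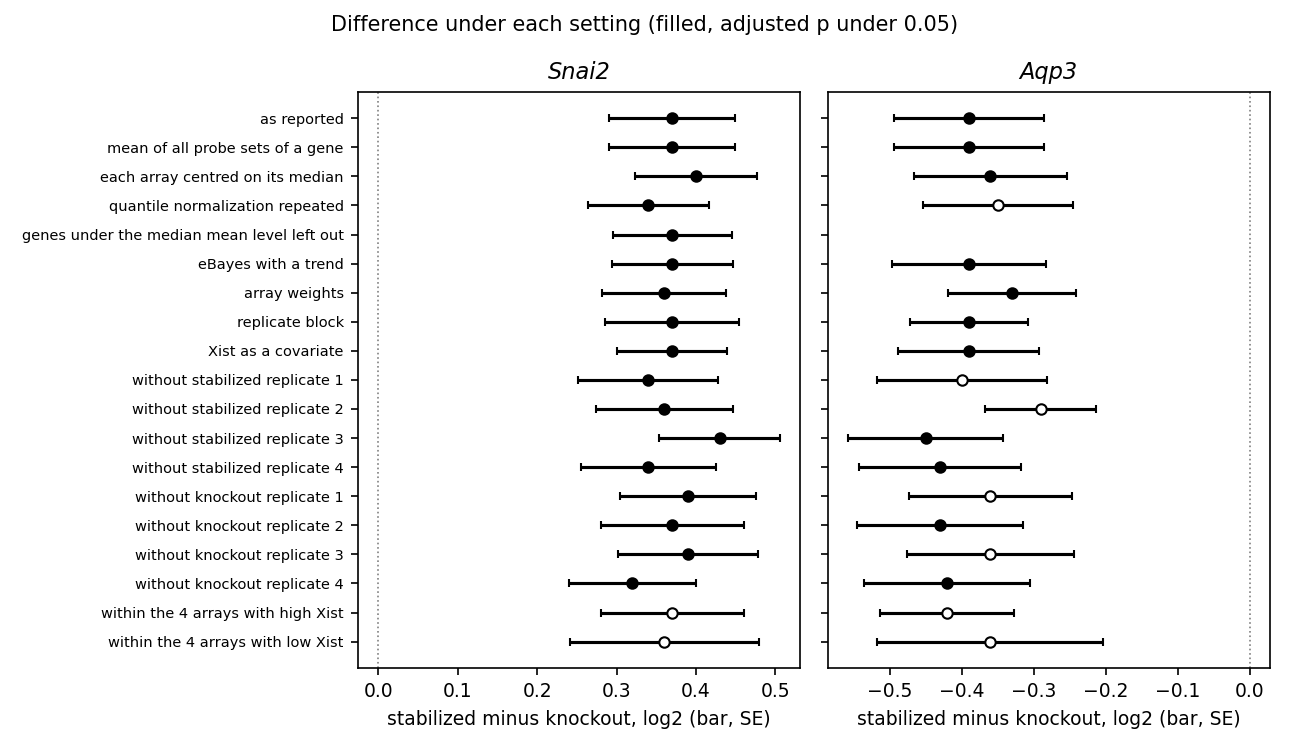
Differences of Snai2 (left) and Aqp3 (right) on the log2 scale under the reported fit and each other setting, with SE bars, filled where the adjusted p was under 0.05. Snai2 stays between 0.32 and 0.43 and is open only within the Xist patterns, and Aqp3 stays between -0.45 and -0.29 and is open in 7 settings, with no point where dim genes were left out because it was not tested there. The probe set mean, eBayes trend, filter on dim genes and replicate block cannot move the difference of a gene with 1 probe set. Their points bear only on the call.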

How the data were processed

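Total RNA from the lungs of 8 mice was measured on 8 Affymetrix arrays, and the deposited log2 values were made by the authors with RMA and the affy package, per the submitters' processing notes, with versions not given in the sources used here. RMA corrects background, makes the array distributions alike and summarises probes, which hides changes in total RNA and compresses dim genes. Of 34760 probe sets, 21640 had 1 gene symbol, 1321 several and 11799 none, and the brightest per symbol gave 19937 genes. No filter on dim genes was used, and arrays carry no read depth, so the 4 arrays per group limit the precision.

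Groups were compared with limma 3.58.1 (lmFit, eBayes) in R 4.3.3 on all 8 arrays with no covariate, and 12.2 total degrees of freedom. In a simulation of this comparison over 19937 genes, 90% of 100 genes changed by 0.5 and 100% of 100 changed by 1 were recovered, and 11 unchanged genes were called. Both sizes are larger than the differences of Snai2 (0.37) and Aqp3 (-0.39), so recovery at the sizes of the markers was not measured. The simulated noise was independent between genes, and far fewer genes were changed than were called in the data. The labels call the replicates biological. Replicate numbers did not pair the samples. Of 329 entries in 23 lists, 312 were measured.

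The 8 markers, the lists and the alternatives were chosen with earlier results of these data known. Named were all markers, Ctnnb1, up to 3 called genes with the smallest p in each list, and the 3 genes closest in profile to each called marker, while others given for context were chosen after their values were seen. Alternatives were other probe set, scaling, filter, prior, weight and covariate choices, a replicate block, and each array left out, and fits within the Xist patterns were added after seeing the data.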

Additional observations from a re-analysis of the deposited data

Results flagged for a closer look

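An array was marked where its gap to the nearest of its group, divided by the group's range, exceeded Dixon's limit for 4 samples. None of the 16 groups of the 8 markers met it, and 7 of 96 groups of all named genes did. Chance gives about 1 in 20 for genes not chosen by their values. Most named genes were chosen by small p or by profile, so the count cannot be set against that rate. Gpx2 in knockout replicate 1 was high at 6.79 against 6.64 to 6.66 (ratio 0.845). Lamb3 and Chad in stabilized replicate 2 were low, at 8.50 against 8.63 to 8.65 (0.872) and 5.76 against 6.27 to 6.36 (0.836). Tcf21 in stabilized replicate 1 was high at 10.11 against 9.78 to 9.84 (0.834). Cd79a in stabilized replicate 4 was low at 5.07 against 5.48 to 5.54 (0.865). Tmem138 and Rell1 in stabilized replicate 3 were low, at 6.29 against 6.54 to 6.58 (0.850) and 8.35 against 8.49 to 8.52 (0.831). Both were chosen for a profile close to that of Snai2, which was also lowest of its group in that array (7.74), so their low values there follow from the choice.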

How the results depend on the processing

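Leaving out the arrays one at a time, 1 to 2 of the 8 markers were called, always with Snai2 as the 1 higher, and 0 to 1 lower, while 1216 to 1839 genes were called in all and 503 to 882 higher. The lowest totals came without stabilized replicate 1 (1216) and knockout replicate 3 (1235). Repeated quantile normalization left 1 marker called and 0 lower. Leaving out genes under the median level, which only Snai2 and Pdgfa of the markers pass, left 1 called, 0 lower, and 584 genes lower in all. Centring gave 1495 higher genes. Within the arrays with high or low Xist, where each group has 2 arrays, limma called 0 markers, 0 higher and 0 lower, although Snai2 and Aqp3 both had an unadjusted p under 0.05 in each. The share of all genes under that unadjusted level was not counted in these fits. Those fits called 670 genes (218 higher, 452 lower) and 354 genes (122 higher, 232 lower). The replicate block, with the numbers not pairing the samples (correlations of -0.01 to 0.08 between equal numbers), called 1828 genes and the same 2 markers, Snai2 at 0.37 (adjusted p = 0.027) and Aqp3 at -0.39 (adjusted p = 0.018). Trp63, at -0.03, turned to 0.00 with centring, 0.01 with repeated quantile normalization or array weights, 0.02 without stabilized replicate 2 or knockout replicate 4, and 0.05 within the high Xist arrays, and ranged from -0.08 to 0.02 as single arrays were left out. Ngfr, at -0.05, turned to 0.01 without stabilized replicate 2, in a range of -0.08 to 0.01. The cause of these changes was not tested.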
